A study of Mus musculus with 4 samples.

Results

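Pre-mRNA splicing removes introns from nuclear transcripts and is carried out by the spliceosome, which is built from small nuclear RNAs and their bound proteins (snRNPs). SR proteins and hnRNP proteins bind the pre-mRNA and steer the choice of splice sites, the Sm and LSm proteins form rings around the small nuclear RNAs, and each snRNP carries specific proteins of its own. These proteins work in the nucleus, although several SR and hnRNP proteins also shuttle to the cytoplasm and act there in the export, transport and translation of mRNA. What was measured here is where the mRNAs encoding them lay in a cell with protrusions, not where the proteins were.

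The mRNAs were followed in YUMM1.7, a mouse melanoma line that carries activated Braf and has lost Cdkn2a, among other changes, and is labelled wild type in both fractions, protrusions and cell bodies. Cells were plated overnight on inserts with 1-µm pores and fibronectin on the underside, so that protrusions passed through the membrane while the bodies stayed on top, and RNA of each side was sequenced after removal of ribosomal RNA. There were 2 protrusion libraries and 2 cell body libraries, each from 6 inserts of the same single line. Splicing genes were chosen by symbol (the *Srsf*, *Hnrnp*, *Sf3a*, *Sf3b*, *Snrp*, *Snrnp*, *Prpf*, *U2af*, *Lsm* and *Tra2* families), which gave 89 of the 16537 genes. They comprised 12 SR proteins (with the SR-like *Tra2a* and *Tra2b*), 20 hnRNP proteins, 8 Sm proteins, 13 LSm proteins and 36 proteins specific to a snRNP or numbered as pre-mRNA processing factors. Values are TPM (reads per transcript length, scaled to the same sum in each library), so that a lower TPM cannot tell less of this mRNA from more of all the others.

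The libraries held 25854943 and 30994908 reads assigned to genes in protrusions, against 29289505 and 25900795 in cell bodies, and 14784 to 15123 genes were detected. The melanocyte markers were low, with *Mitf* at 5.45 and 6.17 TPM in protrusions, against 5.12 and 5.93 TPM in cell bodies, while *Tyr* and *Pmel* were below 1 TPM in every library. Protrusion replicate 1 stood apart in 20 liver genes, whose summed level was 85.9 TPM there and 4.50 TPM in protrusion replicate 2, against 1.698 and 3.552 TPM in cell bodies, and none of the 20 was at 0 in all libraries. Nuclear noncoding RNAs (9 in the table, led by *Rpph1* and *Rmrp*, with none at 0 in all libraries) summed to 33379 and 34719 TPM in protrusions, against 58382 and 60375 TPM in cell bodies. *Rpph1* and *Rmrp* made up most of this sum. *Malat1*, *Rnu11*, *Rnu12* and *Terc* were also lower in protrusions in both replicates. In replicate 1, however, *Neat1* was nearly level (99.4 TPM in protrusions, against 101 TPM) and *Kcnq1ot1* slightly higher in protrusions (4.42 TPM, against 4.29 TPM). The part of either list in the results below was not tested.

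Of the 89 genes, 88 had a mean of at least 1 TPM and were tested. The exception was *Snrpn*, an Sm protein gene of neurons, with 1 to 2 reads in a library. As a whole the group took up nearly the same share of the TPM on both sides, with summed levels of 16052 and 16072 TPM in protrusions, against 16667 and 16282 TPM in cell bodies. That is 1.61% and 1.61% of the library's TPM in protrusions and 1.67% and 1.63% in cell bodies, which is not a share of the RNA mass. The 2 protrusion libraries were lower, but 2 libraries against 2 cannot give less than p = 0.333 in a two-sided exact permutation test, which is the value reached. The median log2 ratio of protrusions to cell bodies, called the log2 fold change here, was -0.07 for the 88 genes and also -0.07 over all 11400 genes tested.

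Single members differed between the fractions. In limma on log2(TPM + 0.5), with p-values adjusted by Benjamini-Hochberg over all genes, 5 of the 88 were higher in protrusions (5.68%, against 2.99% of all genes) and 2 were lower (2.27%, against 4.25%). The higher ones were *Srsf9*, *Hnrnpa0*, *Hnrnpab*, *Lsm14b* and *Hnrnpul1*, and the lower ones *Srsf5* and *Prpf4b*. With the replicate number as a block, since replicates were paired, 9 were higher (10.2%, against 8.08% of all genes) and 10 lower (11.4%, against 13.3%), shares close to those of all genes. Without any single library, limma called none of the 88, with 13 to 27 of them at an unadjusted p under 0.05. With all 4 libraries that held for 32 of the 88, or 36.4%, against 31.3% of all genes, and voom on recovered reads called 6.82% of all genes higher and 7.80% lower. The counts given below for a class or list are read against these shares.

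**Figure D1:**
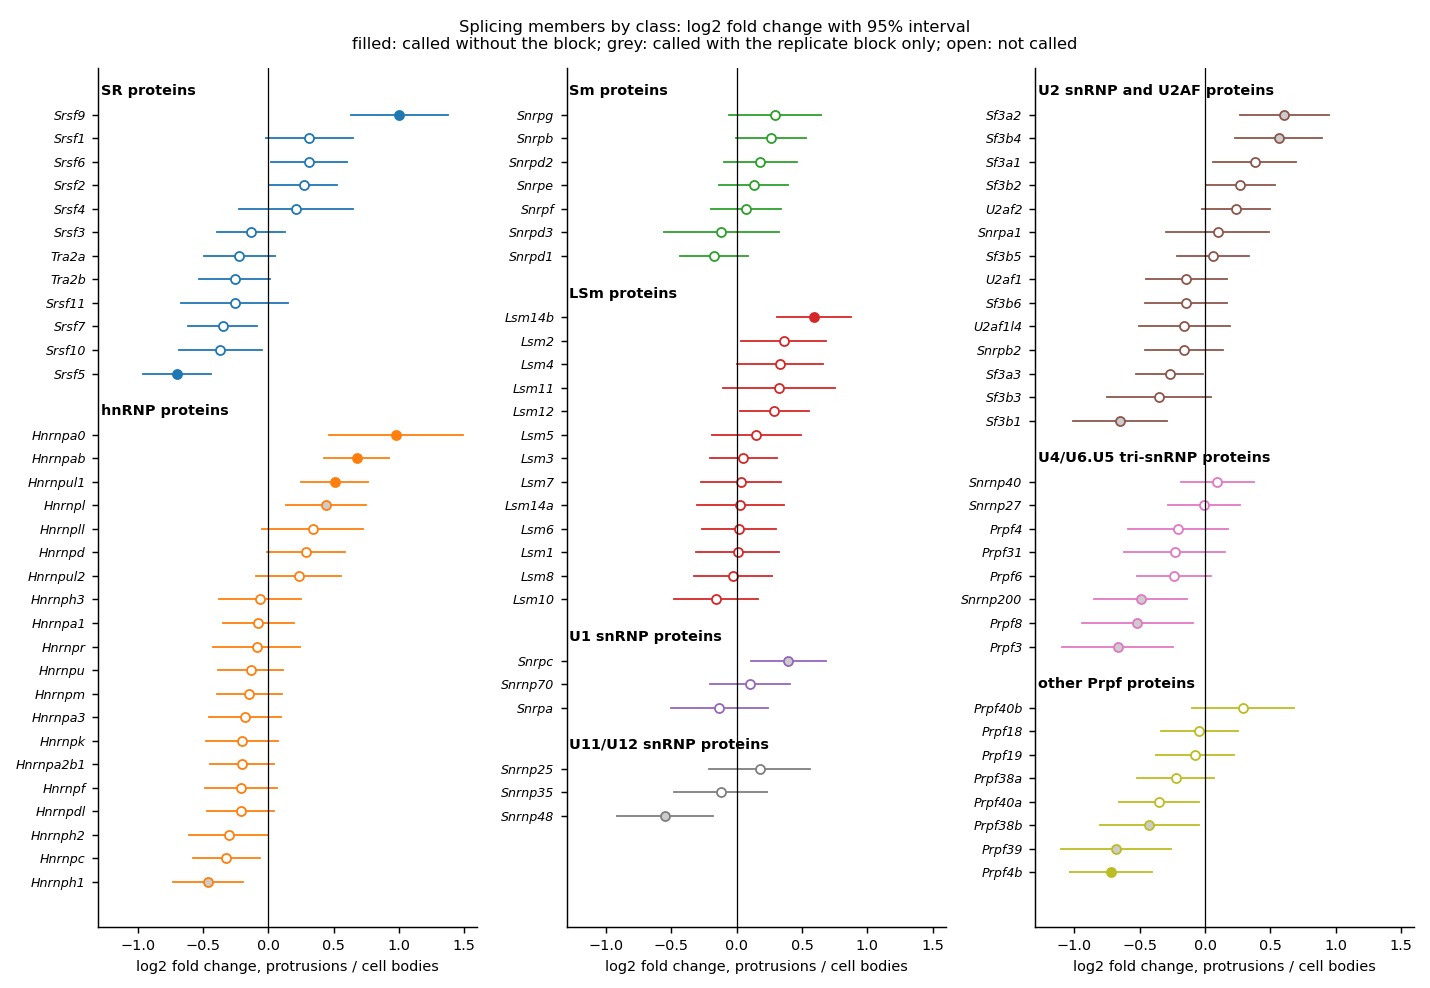
Log2 ratio of protrusions to cell bodies (x axis) with its 95% confidence interval for each of the 88 splicing genes tested, in 9 classes, sorted by fold change. Filled points were called by limma (7 genes), grey points only with the replicate block (12 genes) and open points in neither; SR, hnRNP and U2 snRNP genes spread to both sides of 0, the Sm and LSm genes mostly to the right and the U4/U6.U5 and *Prpf* genes mostly to the left.

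For most members the data left little room for a 2-fold difference. For 82 of the 88 (93.2%) the 95% confidence interval lay within 2-fold in either direction, against 74.1% of all genes, which were less deeply covered (a median of 865 reads per gene and library, against 3227 for the splicing genes). In 29 of the 88 (33.0%) both protrusion libraries were above both cell body libraries, against 26.4% of all genes, and in 34 (38.6%) both were below, against 37.0%. The log2 fold changes of replicate 1 and replicate 2 correlated across the 88 genes with r = 0.84 (Spearman rho 0.83). Over all genes tested r was 0.63 (rho 0.74). The sign was the same in 75 of the 88, against 8786 of the 11400 genes tested. Genes of 1 library share its depth and composition and are not independent replicates.

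**Figure D2:**
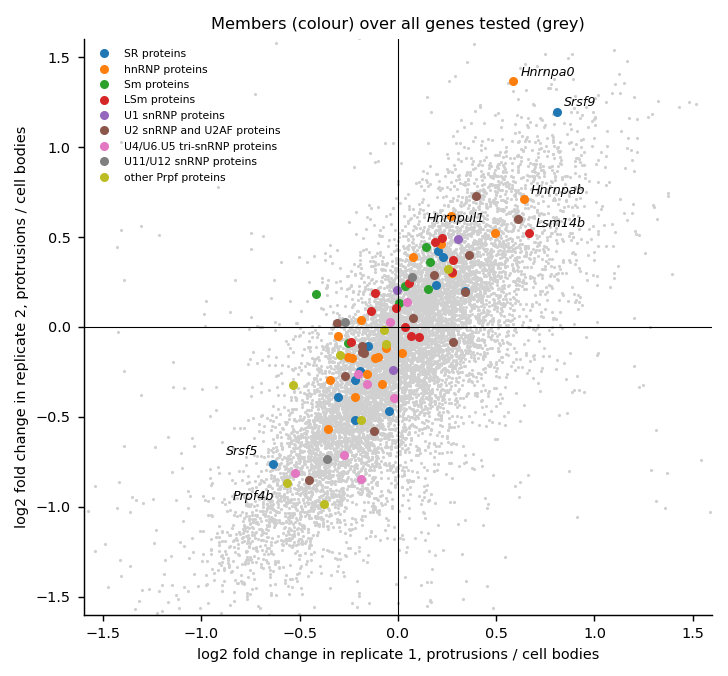
Log2 ratio of protrusions to cell bodies in replicate 1 (x axis) and replicate 2 (y axis), splicing genes in the colour of their class over all genes tested in grey, with the 7 called genes named. The called genes lie toward the ends of the diagonal, with a few members that were not called near them, from *Prpf4b* and *Srsf5* at the lower left to *Srsf9* and *Hnrnpa0* at the upper right, where replicate 2 has the larger fold.

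SR proteins, which bind exonic enhancers through RNA recognition motifs and recruit snRNPs through arginine- and serine-rich tails, held both the largest rise and one of the largest falls of all 88 genes. *Srsf9* (chromosome 5, 115327176 to 115333080 in mm10, plus strand), one of the shorter SR proteins, was at 120 and 122 TPM in protrusions, against 68.1 and 53.0 TPM in cell bodies. Every protrusion library was above every cell body library, and the spread lay mainly between the cell bodies. Its log2 fold change was 1.00 (SE 0.15, limma adjusted p = 0.0349), a 2.00-fold rise that was 0.81 on the log2 scale in replicate 1 and 1.20 in replicate 2.

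*Srsf5* (chromosome 12, 80945503 to 80950507, plus strand) went the other way, with 278 and 255 TPM in protrusions, against 432 and 433 TPM in cell bodies. The groups were far apart compared with their spread. The log2 fold change was -0.70 (SE 0.11, limma adjusted p = 0.0349), and it was -0.64 in replicate 1 and -0.76 in replicate 2.

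None of the other 10 SR genes passed, with or without the block, although with the block and GC correction together *Srsf1* was called higher (log2 fold change 0.52, limma adjusted p = 0.00513). The most abundant, *Srsf3*, which couples splicing to mRNA export, had 401 and 383 TPM in protrusions, against 446 and 413 TPM in cell bodies, and *Srsf2*, the nuclear-retained member known as SC35, had 396 and 377 TPM, against 313 and 328 TPM. *Srsf10*, which represses splicing when dephosphorylated, had a log2 fold change whose interval was -0.69 to -0.05 (estimate -0.37). In all, both protrusion libraries were above both cell body libraries in 4 of the 12 SR genes (33.3%, against 26.4% of all genes). They were below in 7 (58.3%, against 37.0%). The median log2 fold change of the class was -0.18 (range -0.70 to 1.00), and -0.010 after the correction for GC content described below. The median GC content of the class was 44.0%, against 50.5% over all genes tested.

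Close relatives also differed in their ratio within a library, in which a scaling factor common to all genes cancels. The relation to GC content described below need not cancel. GC content was 52.7% in *Srsf9* and 42.9% in *Srsf1*, and 43.5% in *Srsf5* and 50.6% in *Srsf6*. After GC correction the log2 fold changes were 0.94 and 0.52 in the first pair and -0.51 and 0.31 in the second. The TPM ratio of *Srsf9* to *Srsf1*, a close relative with the same domain structure, was 0.425 and 0.458 in protrusions, against 0.279 and 0.266 in cell bodies. The ratio of *Srsf5* to *Srsf6*, which share their domain order, was 1.85 and 1.73 in protrusions, against 3.37 and 3.85 in cell bodies. Both ratios lay apart between the fractions, at a 2-against-2 exact permutation p of 0.333, the smallest possible. These pairs of relatives and those below were chosen after their values were seen. Each sets a gene called in these same libraries against one that was not, so that a difference was largely built in.

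hnRNP proteins coat nascent transcripts and often act against SR proteins at splice sites. Of the 20 hnRNP genes, 3 rose (15.0%, against 2.99% of all genes) and none fell (against 4.25%) in limma, where 7 of the 20 (against 31.3% of all genes) had an unadjusted p under 0.05 and voom on recovered reads also called 3 higher and 0 lower. With the block, 4 were higher (against 8.08% of all genes) and 1 lower (against 13.3%). Of the 20, 13 had a negative log2 fold change (against 6488 of the 11400 genes tested). The median was -0.11, and 0.076 after the correction for GC content described below.

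*Hnrnpa0* (chromosome 13, 58125878 to 58128556, minus strand), a single-exon member of the A/B family that binds AU-rich elements of cytokine mRNAs, had 160 and 184 TPM in protrusions, against 107 and 71.2 TPM in cell bodies. Both protrusion libraries were above, and the 2 cell body libraries differed by more than the 2 protrusion libraries did. The log2 fold change was 0.98 (SE 0.21, limma adjusted p = 0.0498), with 0.59 in replicate 1 and 1.37 in replicate 2. This call is the nearest to the threshold, and it was not made with a pseudocount of 0.1, with median centring of each library or with GC correction.

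*Hnrnpab* (chromosome 11, 51600099 to 51606881, minus strand), known as CBF-A and as a factor in the transport of localized mRNAs in neural cells and sperm precursors, was at 529 and 549 TPM in protrusions, against 339 and 335 TPM in cell bodies. It was the most abundant of the 7 called genes, and its libraries agreed closely within each fraction. The log2 fold change was 0.68 (SE 0.10, limma adjusted p = 0.0349), and the call was also made after a correction for GC content, as was that of *Srsf9* and of no other member.

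*Hnrnpul1*, a SAF-A-like protein of the DNA damage response, had 134 and 136 TPM in protrusions, against 94.8 and 94.6 TPM in cell bodies, a log2 fold change of 0.51 (SE 0.10, limma adjusted p = 0.0478). With the block, *Hnrnpl*, which binds CA repeats, was also called higher at 290 and 326 TPM in protrusions, against 241 and 212 TPM in cell bodies (log2 fold change 0.44, limma adjusted p = 0.0320 with the block and 0.0793 without). *Hnrnph1*, which binds runs of G, was then called lower at 430 and 390 TPM in protrusions, against 551 and 578 TPM in cell bodies (log2 fold change -0.46, adjusted p = 0.0209 with the block and 0.0591 without).

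The most abundant hnRNP genes did not pass. *Hnrnpk*, the KH-domain protein that binds C-rich RNA, had 988 and 925 TPM in protrusions, against 1045 and 1153 TPM in cell bodies. *Hnrnpa1*, which overlaps *Gm10052* and *Gm5643* on its strand so that reads may be shared, had 608 and 678 TPM, against 694 and 660 TPM, with an interval of -0.35 to 0.20 on the log2 scale. *Hnrnpf* had 620 and 553 TPM in protrusions, against 691 and 663 TPM in cell bodies, and the libraries of the fractions did not overlap.

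Relatives again differed within a library, and also in GC content. It was 55.4% in *Hnrnpa0* and 43.3% in *Hnrnpa2b1*, with log2 fold changes of 0.83 and -0.0074 after GC correction. For *Hnrnpab* and *Hnrnpd* it was 52.1% and 48.8% (0.63 and 0.34), and for *Hnrnpul1* and *Hnrnpul2* 54.0% and 49.5% (0.41 and 0.26). *Hnrnpa0* stood at 0.285 and 0.316 of *Hnrnpa2b1*, an A/B protein that binds transport elements of neural mRNAs, in protrusions, against 0.161 and 0.108 in cell bodies. *Hnrnpab* stood at 18.2 and 18.4 times *Hnrnpd* (AUF1, a decay factor for AU-rich mRNAs) in protrusions, against 14.1 and 13.9 times in cell bodies. *Hnrnpul1* stood at 3.06 and 2.75 times *Hnrnpul2* in protrusions, against 2.29 and 2.51 times in cell bodies, the narrowest gap of the pairs.

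**Figure D3:**
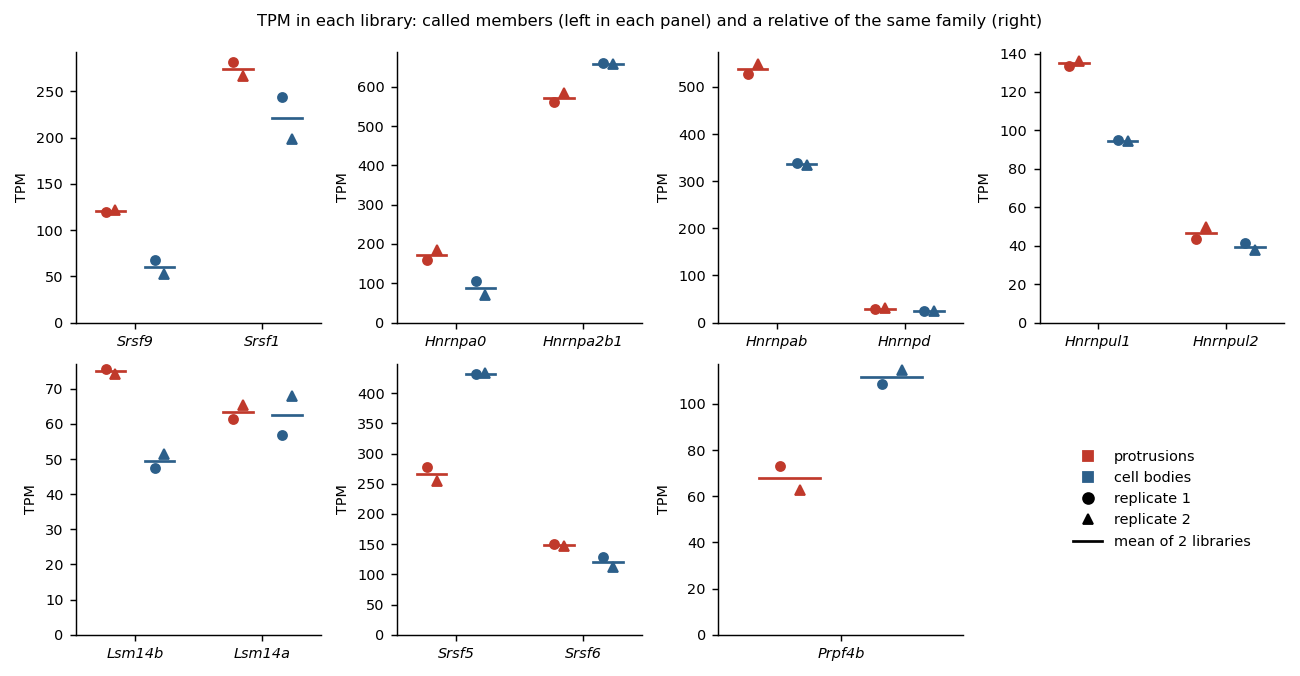
TPM (y axis, from 0) of the 7 called genes, each beside a relative of its family where one was chosen, in protrusions (red, left) and cell bodies (blue, right); circles are replicate 1, triangles replicate 2 and bars the mean of 2 libraries. In *Srsf9*, *Hnrnpa0*, *Hnrnpab*, *Hnrnpul1* and *Lsm14b* both red points lie above both blue points, and in *Srsf5* and *Prpf4b* below.

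The Sm proteins form the ring on the U1, U2, U4 and U5 small nuclear RNAs. Of 7 tested none was called by limma with or without the block or by voom, and none had an unadjusted p under 0.05. With the block and GC correction together *Snrpg* was called higher (log2 fold change 0.41, limma adjusted p = 0.0228). The most abundant, *Snrpe*, had 620 and 655 TPM in protrusions, against 606 and 560 TPM in cell bodies. *Snrpg* had the largest difference, with 557 and 540 TPM in protrusions, against 504 and 396 TPM in cell bodies, or 0.29 on the log2 scale (interval -0.06 to 0.65), and *Snrpd1*, at 405 and 435 TPM in protrusions, against 484 and 464 TPM in cell bodies, had the lowest, -0.17. The 7 intervals all lay within 2-fold, and the summed Sm level was 2897 and 3047 TPM in protrusions, against 2889 and 2632 TPM in cell bodies, with replicate 1 nearly level.

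Of the 13 LSm genes 1 was called higher, *Lsm14b* (7.69%, against 2.99% of all genes), and none lower (against 4.25%). An unadjusted p under 0.05 was reached by 4 (30.8%, against 31.3%), and voom called the same number in each direction. LSM14B does not belong to the U6 ring, and is a cytoplasmic RNA-binding protein of the RAP55 family, best known for its role in oocytes. It had 75.7 and 74.3 TPM in protrusions, against 47.6 and 51.5 TPM in cell bodies, with a log2 fold change of 0.59 (SE 0.11, limma adjusted p = 0.0440). Its relative *Lsm14a*, a component of P-bodies, had 61.4 and 65.4 TPM in protrusions, against 56.9 and 68.0 TPM in cell bodies, which overlap. *Lsm14b* was thus 1.23 and 1.14 times *Lsm14a* in protrusions, against 0.837 and 0.757 times in cell bodies.

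None of *Lsm2* to *Lsm8*, the subunits that with U6 form the nuclear ring and, with *Lsm1* in place of *Lsm8*, the cytoplasmic decay ring, was called by limma with or without the block or by voom, although 2 of the 7 had an unadjusted p under 0.05. With the block and GC correction together *Lsm5* was called higher (log2 fold change 0.49, limma adjusted p = 0.00818). *Lsm8*, particular to the nuclear ring, had 218 and 218 TPM in protrusions, against 240 and 204 TPM in cell bodies, and *Lsm1*, particular to the decay ring, 29.1 and 29.9 TPM, against 27.8 and 31.0 TPM. Both overlapped between the fractions. *Lsm2* had the largest difference of the ring subunits, with 51.2 and 60.3 TPM in protrusions, against 43.8 and 42.6 TPM in cell bodies (log2 fold change 0.36, interval 0.03 to 0.69).

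Of the 3 proteins specific to U1, none was called by limma without the block or by voom, and 1 had an unadjusted p under 0.05. *Snrnp70*, the U1-70K protein, had 193 and 189 TPM in protrusions, against 194 and 164 TPM in cell bodies. *Snrpa*, which binds a loop of the U1 RNA, had 66.1 and 72.2 TPM, against 67.3 and 85.2 TPM. *Snrpc*, which contacts the 5′ splice site duplex, had 141 and 160 TPM, against 114 and 114 TPM, and was called higher only with the block (log2 fold change 0.40, limma adjusted p = 0.0429, and 0.0872 without the block).

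Within the U2 snRNP, subunits of 1 complex lay on both sides. None of the 14 U2 and U2AF genes was called by limma without the block, and 6 (42.9%, against 31.3% of all genes) had an unadjusted p under 0.05. Both with the block and by voom, 2 were called higher and 1 lower. These are 14.3% and 7.14%, against 8.08% and 13.3% of all genes with the block. *Sf3b1*, the large scaffold of SF3B that is mutated in uveal melanoma, had 139 and 109 TPM in protrusions, against 191 and 198 TPM in cell bodies (log2 fold change -0.65, limma adjusted p = 0.00696 with the block and 0.0530 without). *Sf3b4*, a small RNA-binding subunit of the same complex, had 67.1 and 80.7 TPM in protrusions, against 50.9 and 48.5 TPM in cell bodies (log2 fold change 0.56, adjusted p = 0.0162 with the block and 0.0612 without). *Sf3a2*, the zinc-finger subunit of SF3A, had 19.7 and 21.2 TPM in protrusions, against 12.7 and 13.8 TPM in cell bodies (log2 fold change 0.61, adjusted p = 0.0249 with the block and 0.0553 without).

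The TPM ratios of some subunits of 1 complex differed between the fractions. *Sf3b4* was at 0.481 and 0.738 of *Sf3b1* in protrusions, against 0.266 and 0.246 in cell bodies, and *Sf3a2* at 0.145 and 0.151 of *Sf3a3* in protrusions, against 0.0777 and 0.0812 in cell bodies. These ratios were chosen after their values were seen, from subunits with fold changes of opposite sign, so that a difference was built in. Among the 9 SF3A and SF3B genes, 5 had a positive and 4 a negative log2 fold change, the same sign in both replicates for all 9. The U2AF heterodimer, which reads the polypyrimidine tract and the 3′ splice site, did not pass: *U2af2* had 218 and 236 TPM in protrusions, against 192 and 194 TPM in cell bodies, and *U2af1* 181 and 213 TPM, against 225 and 210 TPM, which overlap.

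In the U4/U6.U5 tri-snRNP, 7 of 8 genes had a negative log2 fold change, against 6488 of the 11400 genes tested. The median was -0.23, against -0.07 over all genes, and after GC correction -0.26, against -0.07. None was called by limma without the block, and 3 had an unadjusted p under 0.05 (37.5%, against 31.3% of all genes). Voom called 1 lower (against 7.80% of all genes) and the block 3 lower (37.5%, against 13.3%). These 3 were *Prpf3*, a U4/U6 protein (22.4 and 24.4 TPM in protrusions, against 32.5 and 43.2 TPM in cell bodies, adjusted p = 0.0114 with the block and 0.0689 without), *Prpf8* and *Snrnp200*. *Prpf8*, the scaffold at the catalytic centre, had 94.8 and 73.0 TPM in protrusions, against 108 and 132 TPM in cell bodies (log2 fold change -0.52, adjusted p = 0.0388 with the block and 0.112 without). *Snrnp200*, the helicase that unwinds U4 from U6, had 71.3 and 58.0 TPM, against 86.2 and 95.4 TPM (-0.49, adjusted p = 0.0318 with the block and 0.0873 without). Their U5 partner *Snrnp40* had 74.7 and 73.2 TPM, against 72.4 and 66.3 TPM, and was the only one with a positive value, 0.09.

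Of 8 other *Prpf* genes 1 was called lower without the block (12.5%, against 4.25% of all genes) and 3 with it (37.5%, against 13.3%). *Prpf4b* (chromosome 13, 34875493 to 34902878, plus strand), the kinase that phosphorylates tri-snRNP proteins before the spliceosome is activated, had 73.1 and 62.5 TPM in protrusions, against 108 and 115 TPM in cell bodies. The log2 fold change, -0.72 (SE 0.13, limma adjusted p = 0.0400), was the lowest of all 88 genes, and the groups did not overlap. *Prpf39*, a U1-associated factor, had 37.2 and 30.7 TPM in protrusions, against 48.4 and 61.3 TPM in cell bodies (-0.68, adjusted p = 0.0147 with the block and 0.0665 without), and *Prpf38b* 41.4 and 38.0 TPM, against 60.2 and 47.6 TPM (-0.43, adjusted p = 0.0497 with the block and 0.129 without). The summed level of these 8 genes was 439 and 407 TPM in protrusions, against 540 and 558 TPM in cell bodies. Their median log2 fold change was -0.29, and -0.11 after GC correction.

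**Figure D4:**
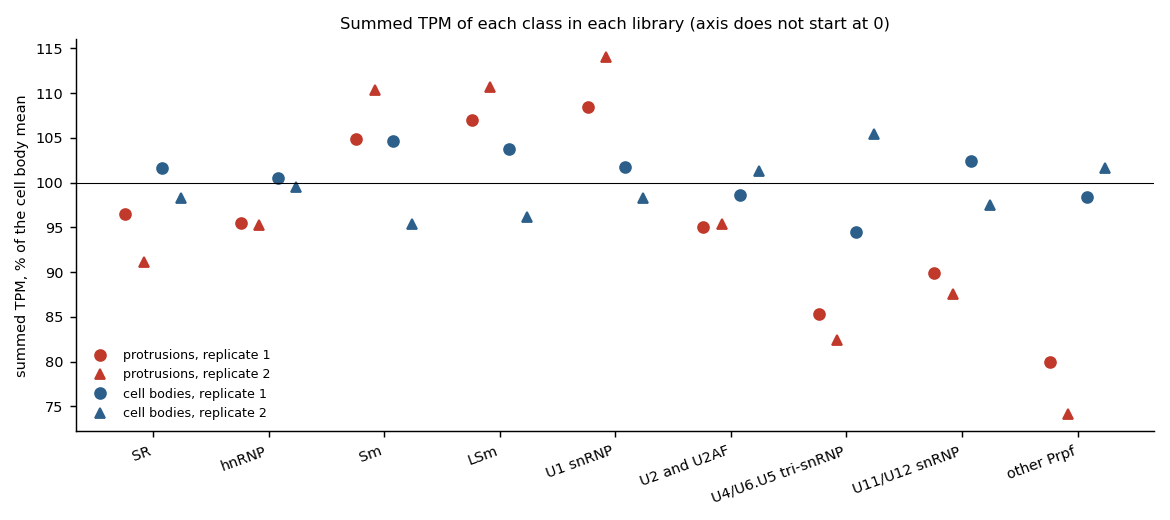
Summed TPM of each class in each library as a percentage of the mean of the 2 cell body libraries (y axis, not from 0), protrusions in red and cell bodies in blue, circles for replicate 1 and triangles for replicate 2. Both protrusion libraries lie above both cell body libraries in the Sm, LSm and U1 classes and below them in the other 6, farthest in the other *Prpf* class.

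The minor spliceosome removes a rare class of introns with U11 and U12 in place of U1 and U2. Of its 3 genes in the group, *Snrnp48* was called lower only with the block, at 26.96 and 21.96 TPM in protrusions, against 34.8 and 36.8 TPM in cell bodies (log2 fold change -0.55, limma adjusted p = 0.0302, and 0.0760 without the block). *Snrnp35* had 24.4 and 29.6 TPM, against 29.6 and 29.0 TPM, and *Snrnp25* 30.9 and 28.6 TPM, against 29.4 and 23.5 TPM. The U11 and U12 RNAs themselves lay far more on the cell body side. U12 (*Rnu12*) was at 10.4 and 9.79 TPM in protrusions, against 32.9 and 41.1 TPM in cell bodies (-1.82, SE 0.16, limma adjusted p = 0.0273), and U11 (*Rnu11*) at 13.0 and 22.3 TPM, against 59.4 and 57.8 TPM (-1.75, SE 0.25, adjusted p = 0.0349). Both RNAs are short, and these levels rest on 19 to 99 reads in a library.

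Proteins that act with these members were taken from 5 lists of other genes. Of 55 other spliceosome proteins 2 were higher (3.64%, against 2.99% of all genes) and none lower (against 4.25%) in limma. With the block 5 were higher (9.09%, against 8.08%) and 4 lower (7.27%, against 13.3%). The 2 called without the block were *Wbp11* and *Sf1*. *Wbp11*, a nuclear splicing factor, was at 52.2 and 54.1 TPM in protrusions, against 29.8 and 30.1 TPM in cell bodies (log2 fold change 0.82). *Sf1*, which binds the branch point, was at 45.7 and 45.6 TPM, against 28.2 and 30.9 TPM (0.62). Of 23 exon junction and SR-related proteins 1 was higher (4.35%), *Scaf1* (0.78), and 2 were lower (8.70%), *Pnisr* (-1.05) and *Rsrc2* (-0.68). With the block 2 were higher (8.70%, against 8.08% of all genes) and 6 lower (26.1%, against 13.3%). Of 33 other splicing regulators 1 was higher, *Khsrp* (0.89), which binds AU-rich elements, and 1 lower, *Matr3* (-0.58), a nuclear matrix protein (3.03% each). With the block 3 were higher (9.09%, against 8.08% of all genes) and 6 lower (18.2%, against 13.3%).

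Kinases that phosphorylate SR proteins held no higher gene among 7 tested (against 2.99% of all genes) and 2 lower ones (28.6%, against 4.25%), both of the CLK family. *Clk1* had 42.9 and 36.4 TPM in protrusions, against 71.9 and 86.2 TPM in cell bodies (log2 fold change -0.99, SE 0.15, limma adjusted p = 0.0350), and *Clk4* 32.0 and 25.5 TPM, against 46.7 and 50.7 TPM (-0.76, SE 0.15, adjusted p = 0.0472). Of 19 snRNP assembly factors 1 was lower (5.26%, against 4.25% of all genes). It was *Tgs1*, which trimethylates the snRNA cap, at 14.4 and 14.8 TPM, against 23.6 and 32.9 TPM (-0.91, adjusted p = 0.0479). The median log2 fold change of the 5 lists lay between -0.16 and 0.04, near the -0.07 of all genes. Of the 10 list genes called, 1 (*Wbp11*) was called after the correction for GC content described next, where *Clk1* had an adjusted p of 0.0555 and *Clk4* of 0.0817 in limma, and 9 were called with that correction and the block together.

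Fold changes went with base composition. Across the 88 members the log2 fold change correlated with the GC content of the annotated transcripts at r = 0.52, against 0.36 over 11276 genes. In the 30 members of lowest GC content (37.3% to 45.2%) the median log2 fold change was -0.21 and 25 were negative. In the 29 of highest GC content (51.5% to 60.4%) it was 0.24 and 8 were negative. All 5 members called higher had a GC content of 51.3% to 55.4%, and the 2 called lower 43.5% and 40.8%. After a correction for GC content the correlation was 0.11 among the members, limma called 2 of the 88 higher and 0 lower (29 at an unadjusted p under 0.05), against 0.912% and 1.57% of all genes, and with the block as well it called 12 higher and 6 lower, against 8.04% and 13.5%. Of the 7 genes called without either, all 7 were called with both. Of the 12 called only with the block, 6 were called with both, and *Hnrnph1*, *Prpf38b*, *Prpf39*, *Sf3a2*, *Snrnp48* and *Snrpc* were not, with limma adjusted p of 0.0694 to 0.106. A further 5 were called only with both, *Hnrnpll*, *Lsm5*, *Lsm12*, *Snrpg* and *Srsf1*, all higher.

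**Figure D5:**
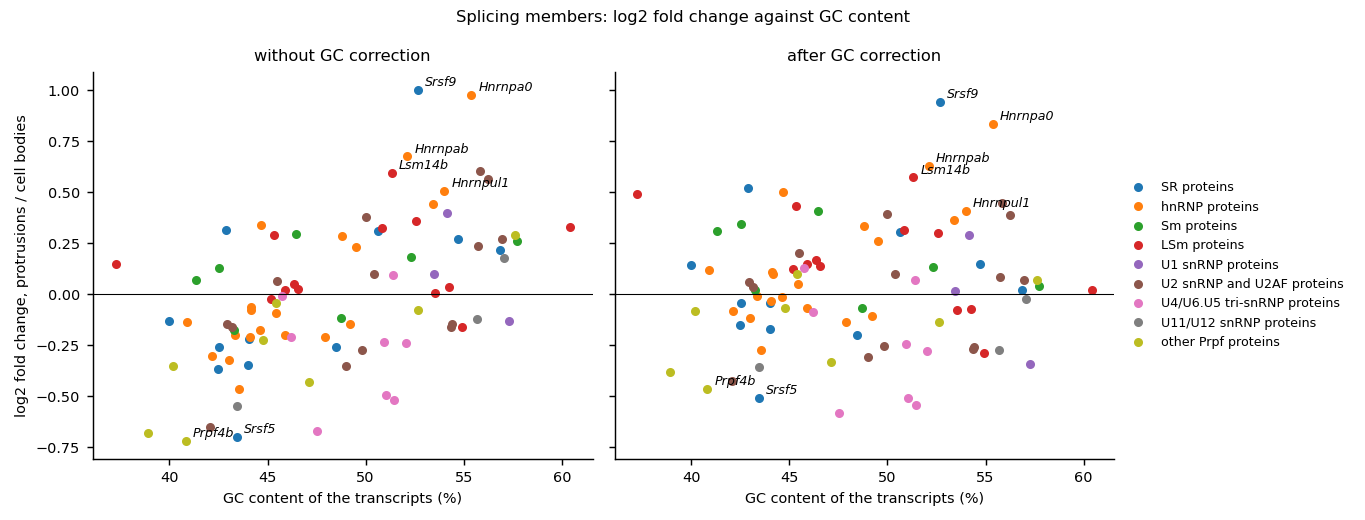
Log2 ratio of protrusions to cell bodies (y axis) against the GC content of the gene's annotated transcripts in percent (x axis) for the 88 splicing genes, before (left) and after (right) a correction for GC content, in the colours of the classes. The slope seen on the left (r = 0.52) is mostly gone on the right (r = 0.11), while *Srsf9* and *Hnrnpa0* stay at the top and *Srsf5* and *Prpf4b* near the bottom.

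GA-rich stretches of the 3′ UTR are known to mark a class of mRNAs sent to protrusions, and the members were searched for them. A window of 30 bases with at least 27 purines, including at least 8 G and 8 A, was looked for on the sense strand in the first 300 bases of the 3′ UTR (GENCODE transcripts of GRCm38, the same build as mm10). Of 68 members with such a region 1 held a window (1.47%), against 206 of 8142 genes tested (2.53%). The windows below show the element of *Kif1c*, the localized mRNA at the centre of the study, and of *Rab13*, a localized GTPase mRNA, beside that of *Hnrnpul2*, the member that held one, and the most purine-rich one with enough G and A in *Srsf9*, the member with the largest rise, which had 20 purines and did not qualify. *Net1*, another localized mRNA, did not hold a window, with 18 purines at most under this rule. Capitals mark the longest run of purines.
Kif1c: cagaaagcagagagcAAGAGAGAGGGAAGG
Rab13: ggaagaaaggggcAGGGAAAGGAGGGGGAG
Hnrnpul2: aagtaggggtGGGGGAGGGGGGAGtggaaa
Srsf9: agcagtgacctgttaggctgcAGAGAGAAG

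They lie at chr11:70728971-70729000, chr3:90225722-90225751, chr19:8831677-8831706 and chr5:115332904-115332933, all on the plus strand, and begin at bases 92, 139, 142 and 185 of the 3′ UTR. *Hnrnpul2* had 43.6 and 49.5 TPM in protrusions, against 41.3 and 37.8 TPM in cell bodies, or 0.23 on the log2 scale (interval -0.09 to 0.56), and was not called. The median log2 fold change of the 206 genes that held a window was 0.11, against -0.06 for the others. A window is a match of letters and not a shown site, and a gene without one may hold other elements.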

How the data were processed

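In YUMM1.7 cells, 2 libraries of protrusions were compared with 2 of cell bodies. The authors deposited TPM per gene and library, from single reads of stranded libraries mapped to mm10. The paper's methods name TopHat, the submitters' notes name FastQC, STAR, featureCounts and edgeR. The sources used here do not state whether counting used strand, so genes that overlap a neighbour (*Hnrnpab*, *Prpf39*, *Hnrnpk*, *Hnrnpa3*, *Sf3a3*, *Sf3b3*, *Srsf4*, *Snrpa* and others) may share reads. The deposited log2 values are the authors' mean log2 CPM. Their fold change, likelihood ratio, p-value and FDR columns were not used.

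With limma 3.58.1 in R 4.3.3 and a trended prior, log2(TPM + 0.5) of the 11400 genes at or above a mean of 1 TPM was fitted, two-sided, with Benjamini-Hochberg adjustment and calls below 0.05. The study's supplement heads the values of a replicate as a pair, and deviations of same-numbered libraries correlated at 0.45 over these genes, so the fit with the replicate as a block is given where it changed a call. Whole reads were recovered for all 16537 genes as the smallest whole numbers that gave the TPM ratios (tolerance 0.01 reads at most). They were multiplied by a whole factor taken from the authors' mean log2 CPM, and gave depth and a voom fit. GC content (98.4% of genes) is the median over GENCODE transcripts. Scripts were tested on simulated data. Alternatives were pseudocounts of 1 and 0.1, no minimum TPM and a minimum of 5, the block, median centring, voom, GC correction and leaving out each library. No per-sample column was left unused. Named genes are every called member, the 3 most abundant and the 3 of largest fold in each class, called list genes (at most 4 a list), and members called only with the block or paired as relatives, the last after their values were seen. Members and lists were chosen with earlier results of these data known. P-values rest on the spread between 2 libraries a fraction, combined with a prior variance taken from all genes tested. That prior carried 3.81 degrees of freedom, against 2 of the gene itself, and 10.2 against 1 with the block.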

Additional observations from a re-analysis of the deposited data

How the results depend on the processing

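All 7 called members kept their direction under all 13 alternatives, and of the 51 named members 39 did. The counts, 5 higher and 2 lower, were 5 and 2 with a pseudocount of 1 and 4 and 2 with a pseudocount of 0.1. They were 9 and 10 with the replicate block, 2 and 0 with GC correction, 12 and 6 with both, and 0 and 0 with no minimum TPM (36 at an unadjusted p under 0.05). The lower count was 5 with a minimum of 5 TPM and 5 with voom, where the higher count was 7 each. With median centring the counts were again 5 and 2, with *Sf3a2* called and *Hnrnpa0* not. Without 1 library they were 0 to 0 in both directions, the lone library being assumed to vary like the other fraction's, and adjusted p of the 7 ranged from 0.0619 to 0.226. Over all genes the calls (341 higher, 485 lower) were 921 and 1513 with the block, 777 and 889 with voom, 505 and 801 at 5 TPM, 104 and 179 with GC correction, 0 and 0 with no minimum, and 0 to 14 and 0 to 144 without 1 library. The median log2 fold change of members, -0.07, was 0.0095 with median centring (0.013 over all genes), -0.0096 with voom, 0.031 with GC correction, alone or with the block, and -0.061 to -0.012 without 1 library. Small differences changed sign. With GC correction, alone or with the block, the values were *Hnrnpa1* 0.099, *Lsm7* -0.071, *Lsm8* 0.12, *Snrnp25* -0.025, *Snrnp27* 0.13, *Snrpb2* 0.038, *Snrpd1* 0.023 and *Srsf3* 0.15. With median centring they were *Hnrnpa1* 0.0036, *Lsm8* 0.055 and *Snrnp27* 0.073, and with voom *Lsm8* 0.035 and *Snrnp27* 0.056. Without 1 library they ranged over *Hnrnpa1* -0.15 to 0.0022, *Lsm14a* -0.10 to 0.15, *Lsm7* -0.083 to 0.16, *Lsm8* -0.14 to 0.091, *Snrnp27* -0.071 to 0.059, *Snrnp35* -0.26 to 0.014, *Snrnp70* -0.023 to 0.22, *Snrpa* -0.30 to 0.036. The cause was not tested. Each tested member had at least 253 reads in a library, and each fraction had 2 libraries.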

Other observations

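Members with more exons had lower log2 fold changes. Across the 88 splicing genes the log2 fold change correlated with the log2 number of exons of the annotated transcripts at r = -0.38 (rho = -0.34), against -0.05 over 10551 genes, and at -0.41 against -0.01 after GC correction. With log2 transcript length r was -0.24 in the members, against 0.09 over 11276 genes, and -0.19 against 0.16 after GC correction. These are descriptions across genes that share libraries, and the relation was noticed in these data.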
